A study of Mus musculus with 3 samples.

Results

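The genes described here are 10 heat shock proteins and chaperones: the HSP70 genes Hspa1a, Hspa1b, Hspa8 and Hspa5, the HSP110 gene Hsph1, the J-domain gene Dnajb1, the HSP90 genes Hsp90aa1 and Hsp90ab1, and the mitochondrial chaperonin pair Hspd1 and Hspe1. They were taken by symbol from the 22350 protein-coding genes of the GENCODE M1 annotation of the mouse mm9 assembly on chromosomes 1 to 19 and X, and all 10 were found once. Chromatin was immunoprecipitated from primary macrophages grown from the bone marrow of female Fvb mice in medium conditioned by L929 cells, on day 7 of differentiation, with an antibody (ab5131) against the C-terminal repeat of RNA polymerase II (Pol_II) phosphorylated on serine 5, a mark of polymerase at and shortly after initiation. There were 3 libraries: Ser5 Pol_II from untreated cells, Ser5 Pol_II from cells given 10 ng/ml of lipopolysaccharide (LPS) for 2 h, and unprecipitated input DNA from untreated cells. The comparison asked how Ser5 Pol_II on these genes differed after the endotoxin. There was 1 library per condition, so no test of LPS against untreated cells was possible, and every interval given below is a 95% interval that covers the counting of tags alone.

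Chaperones bind unfolded or partly folded proteins and help them to fold, to cross membranes or to be degraded. HSP70 proteins hold short hydrophobic stretches in a cycle driven by ATP, J-domain proteins deliver the client and start ATP hydrolysis, HSP110 proteins exchange the nucleotide, HSP90 proteins mature kinases and receptors, and HSP60 with HSP10 encloses proteins of the mitochondrial matrix. Many of the cytosolic and mitochondrial members are driven by heat shock factor 1 through inverted repeats called heat shock elements, while Hspa5, the HSP70 of the endoplasmic reticulum (ER), is a target of the unfolded protein response. Paused polymerase just downstream of the start is a classical feature of heat shock promoters.

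The untreated, LPS and input libraries held 7616771, 6249819 and 7533308 tags on the chromosomes used, of 45, 30 and 36 bases. A tag is the 5′ end of an aligned read, and levels are given per length, as normalised tags per kb after each library was scaled to 1000000 tags. The labels were borne out by inflammatory genes within 1 kb of the start (TSS window): Ccl5 had 15 tags in untreated and 2285 in LPS cells, Tnf 1352 and 6465, and Nfkbia 963 and 3735. Of 8 macrophage markers 8 had a Ser5 peak in this window in both libraries, against 0 of 5 B cell, 0 of 5 T cell, 0 of 4 erythroid and 0 of 5 fibroblast markers; of 5 granulocyte markers 1, Camp, had one after LPS, with 21 tags in untreated, 58 in LPS and 24 in input DNA. The ratio of LPS to untreated levels had a median of 0.831 over the 12535 genes with at least 10 tags in this window, a shift of -0.27 on the log2 scale, and the members are set beside that median below.

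The promoters of 4 members are shown because their sequence bears on how the tags can be read. The first pair are the copies Hspa1a (chr17:35109052-35109319, minus strand) and Hspa1b (chr17:35096134-35096401, minus strand), whose annotated starts lie 12886 bp apart. Aligned without gaps, this stretch of 268 bp was identical at 264 positions (98.5%), and the 4 bases that differ are in capitals.
Hspa1a: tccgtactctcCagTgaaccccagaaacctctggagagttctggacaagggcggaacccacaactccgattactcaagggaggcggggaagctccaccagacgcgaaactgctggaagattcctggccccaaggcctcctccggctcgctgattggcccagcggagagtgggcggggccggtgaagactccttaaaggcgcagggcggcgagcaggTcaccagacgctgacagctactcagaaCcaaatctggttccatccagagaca
Hspa1b: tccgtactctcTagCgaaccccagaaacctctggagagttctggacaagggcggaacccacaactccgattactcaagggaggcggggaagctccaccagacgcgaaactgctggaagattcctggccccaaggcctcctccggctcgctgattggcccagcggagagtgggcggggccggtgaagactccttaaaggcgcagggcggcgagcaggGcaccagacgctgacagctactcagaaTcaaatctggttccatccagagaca

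The other promoters carry a motif that a search of the 300 bp around the start of transcript 001, or the gene 5′ end where there was none (250 bases before it, and 50 from the first transcribed base on, which is position 0) found on either strand. The start of transcript 001 lies 219 bp downstream of the gene 5′ end in Hspd1, and it also lies downstream of it in Hspa5, while the TSS windows are centred on the gene 5′ end. The members' promoters with a heat shock element of 3 units, GAANNTTCNNGAA, included those of Hspd1 and Hspe1. For the share over all 22350 genes the 300 bp were placed at the gene 5′ end instead, and 108 (0.483%) held this element. The match of Hspd1 lies outside its window at the gene 5′ end and is not among the 108. Members and all genes were thus not searched in the same windows. In Hspd1 (chr1:55144819-55145118, minus strand) a pair of overlapping matches spanned position -52 to -35, and the same bases read from the other strand were at -73 to -56 of Hspe1, whose promoter overlaps this one. The ER stress response element, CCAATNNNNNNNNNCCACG, was at position -70 to -52 of Hspa5 (chr2:34627365-34627664, plus strand). In the windows at the gene 5′ end it was in 22 (0.0984%) of all promoters. The match of Hspa5 lies outside that window and is not among the 22. The exact letters TATAAA were in 0 members and, in the windows at the gene 5′ end, in 13.4% of all promoters. Variants of these letters were not searched, and the Hspa5 sequence below holds tatataag. These matches are descriptions of the mm9 sequence, and the matched bases are in capitals.
Hspd1: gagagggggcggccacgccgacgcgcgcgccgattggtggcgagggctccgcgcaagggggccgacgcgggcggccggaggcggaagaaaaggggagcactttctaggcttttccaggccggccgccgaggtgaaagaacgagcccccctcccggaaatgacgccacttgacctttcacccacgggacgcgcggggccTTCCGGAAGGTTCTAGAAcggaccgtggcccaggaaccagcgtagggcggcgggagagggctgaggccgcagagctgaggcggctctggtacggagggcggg
Hspa5: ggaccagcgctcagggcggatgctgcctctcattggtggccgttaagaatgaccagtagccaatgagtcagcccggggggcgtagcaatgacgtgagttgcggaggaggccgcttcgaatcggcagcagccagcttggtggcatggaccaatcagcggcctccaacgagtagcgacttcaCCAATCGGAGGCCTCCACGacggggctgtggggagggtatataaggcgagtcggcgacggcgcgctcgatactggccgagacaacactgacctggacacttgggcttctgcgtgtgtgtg

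Ser5 tags were enriched over input within 1 kb of an annotated start of every member in untreated macrophages. Those counted at Hspa1a may not all belong to it. In the TSS window 9 of 10 members were at least 2 times above input DNA in untreated cells, where 71.9% of the 14854 genes tested were, and 9 of 10 after LPS, where 70.4% of 14538 were. The member outside this count was Hsp90aa1 in both libraries, and only with the window at the 5′ end of the annotated gene. Hspa1a is inside the count with tags of uncertain placing. Of its tags, 72 of 87 untreated and 44 of 65 LPS ones began at positions with a further place in mm9. In input DNA 1 of 10 did, and the window also holds the start of Hspa1l. A Ser5 peak called against input touched the window of 10 of 10 members in untreated cells (48% of all genes) and of 9 of 10 after LPS (45.9%). The members' median ratio to input was 17.6 in untreated cells and 14.9 after LPS, against 7.46 and 5.97 over all genes tested.

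The order of the levels in untreated cells ran from Hspa5 (56.9 normalised tags per kb) through Hspa8 (48.6), Hsp90ab1 (42.8), Dnajb1 (36.7), Hsp90aa1 at transcript 001 (33.5), Hspe1 (20.3), Hspd1 (19.8), Hspa1b (11.7) and Hsph1 (10.6) to Hspa1a (5.71). Adjacent members of this order had overlapping counting intervals in the pairs Hspa8 and Hsp90ab1, Hsp90ab1 and Dnajb1, Dnajb1 and Hsp90aa1, Hspe1 and Hspd1, and Hspa1b and Hsph1. Hspa5 ranked 79th from the top of all 22350 genes, Hspa8 143rd, Hsp90ab1 205th and Dnajb1 304th. The lower part of the order depends on how many positions can hold a uniquely placed read. That share was 35.9% for Hspa1a and 37.5% for Hspa1b, against 92.6% for Hspd1 and 96.9% for Hsph1. All tags divided by the kb of such positions gave 31.1 for Hspa1b, 21.4 for Hspd1, 21.2 for Hspe1, 15.9 for Hspa1a and 10.9 for Hsph1. Tags that began at other positions are included in these values.

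**Figure D1:**
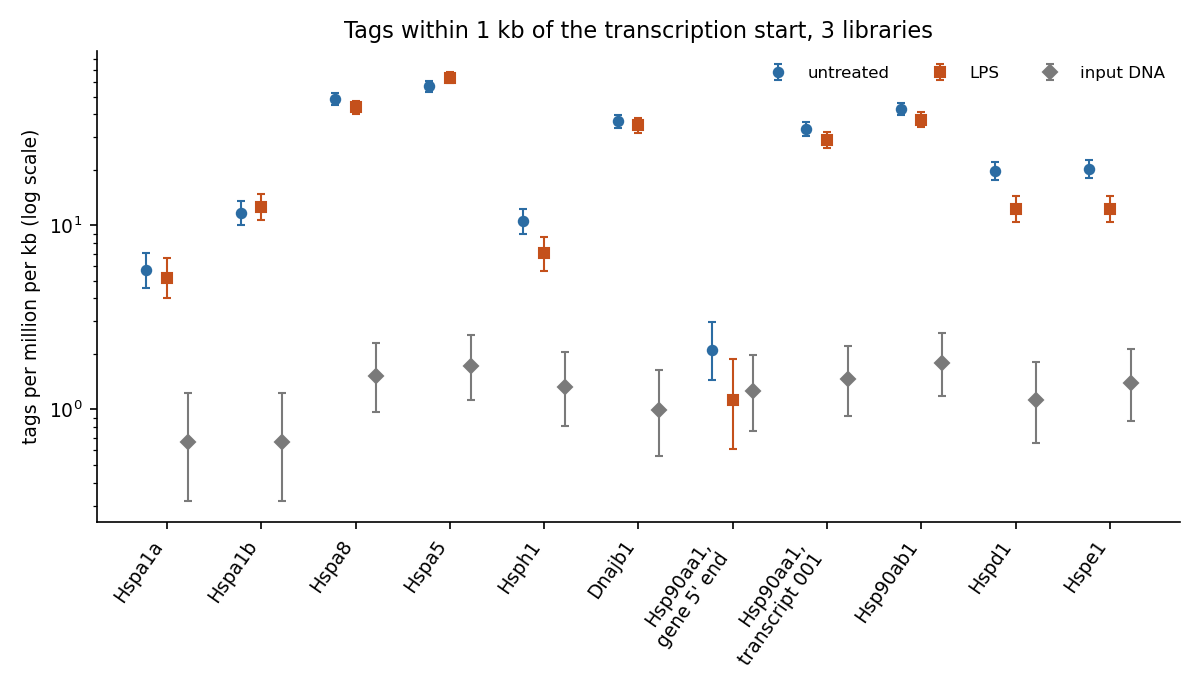
Level of tags within 1 kb of the transcription start of each member in untreated, LPS and input libraries, in normalised tags per kb on a log axis, with 95% exact Poisson intervals from the counting of tags. Hsp90aa1 is drawn at both annotated starts, and away from its gene 5′ end both Ser5 libraries lie above input for every member, from 5.20 for Hspa1a after LPS to 63.3 for Hspa5 after LPS.

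Hspa5 encodes BiP, the HSP70 of the ER lumen, and had the highest level of the members in both Ser5 libraries. Its TSS window held 867 tags in untreated cells, 791 in LPS cells and 26 in input, which are levels of 56.9 (53.2 to 60.8), 63.3 (58.9 to 67.8) and 1.72 (1.13 to 2.53) normalised tags per kb. The LPS library was thus slightly higher, with a ratio of LPS to untreated of 1.11 (1.01 to 1.23). The gene body (chr2:34627490-34632051, plus strand) gave the same ratio of 1.11 (1.01 to 1.22), from 879 and 800 tags. Hspa5 was the only member whose interval lay above 1 in either region. The first 100 bases of transcript 001, just downstream of the ER stress response element shown above, held 359 of the untreated and 298 of the LPS tags.

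Hspa8 encodes Hsc70, the HSP70 that most cells express without stress. It had 740 tags in untreated, 546 in LPS and 23 in input DNA in the TSS window, or 48.6 (45.1 to 52.2), 43.7 (40.1 to 47.5) and 1.53 (0.967 to 2.29) normalised tags per kb. The levels of both Ser5 libraries overlapped in their intervals, and the ratio was 0.90 (0.80 to 1.01). The crest was downstream of the start, in the bin from 300 to 399 bp in untreated cells (195 tags) and from 200 to 299 bp after LPS (181 tags). A separate peak upstream, with its midpoint at -823.5 bp from the start in untreated cells and at -846.5 bp after LPS, held 104 and 86 tags.

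Hspa1a and Hspa1b encode the heat-inducible HSP70 and differ little in sequence, so that a tag in their shared parts is placed by few bases. Hspa1a had 87 tags in untreated, 65 in LPS and 10 in input DNA in the TSS window, and Hspa1b had 178, 158 and 10. LPS over untreated levels came to 0.91 (0.65 to 1.27) for Hspa1a and 1.08 (0.87 to 1.35) for Hspa1b, and to 1.03 (0.85 to 1.23) for the sum of both windows (265 and 223 tags). All 3 intervals hold 1. Reads of 45 and 30 bases had 1 place in mm9, with at most 2 mismatches, at only 35.9% and 35.5% of start positions in the window of Hspa1a and at 37.5% and 37.1% in that of Hspa1b. All tags of the window divided by the kb of such positions came to 15.9 in untreated and 14.7 in LPS cells for Hspa1a, and 31.1 and 34.1 for Hspa1b. Many of these tags began at other positions, as counted below, so these values are not levels of uniquely placed tags.

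The tags of the copies lay in different places. In the stretch of 268 bp printed above, Hspa1a held 51 untreated and 36 LPS tags, and Hspa1b 11 and 7, while input held 0 at both, which allows up to 3 tags each. All 51 and 36 reads on Hspa1a reached a base that differs from the other copy or the edge of the stretch, and so did 10 of the 11 and 7 of the 7 on Hspa1b. The edges are the limits of the windows compared and not known points of difference. This count therefore does not show that the reads can tell the copies apart. Although the stated alignment keeps reads with 1 place within 2 mismatches, 72 of the 87 untreated tags at Hspa1a began at positions with a further such place in mm9, and of the 65 LPS tags 44 did, against 40 of 178 and 25 of 158 at Hspa1b. The division of signal between the copies at the start itself is therefore uncertain. At Hspa1b the fullest bin was 400 to 301 bp upstream of the start, with 42 untreated and 43 LPS tags, beyond the shared stretch. The window of Hspa1a also holds the start of Hspa1l, an HSP70 gene on the opposite strand 579 bp away, and the end of the gene Gm20481, which runs through the body of Hspa1a on that strand, and their tags cannot be told apart there.

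**Figure D2:**
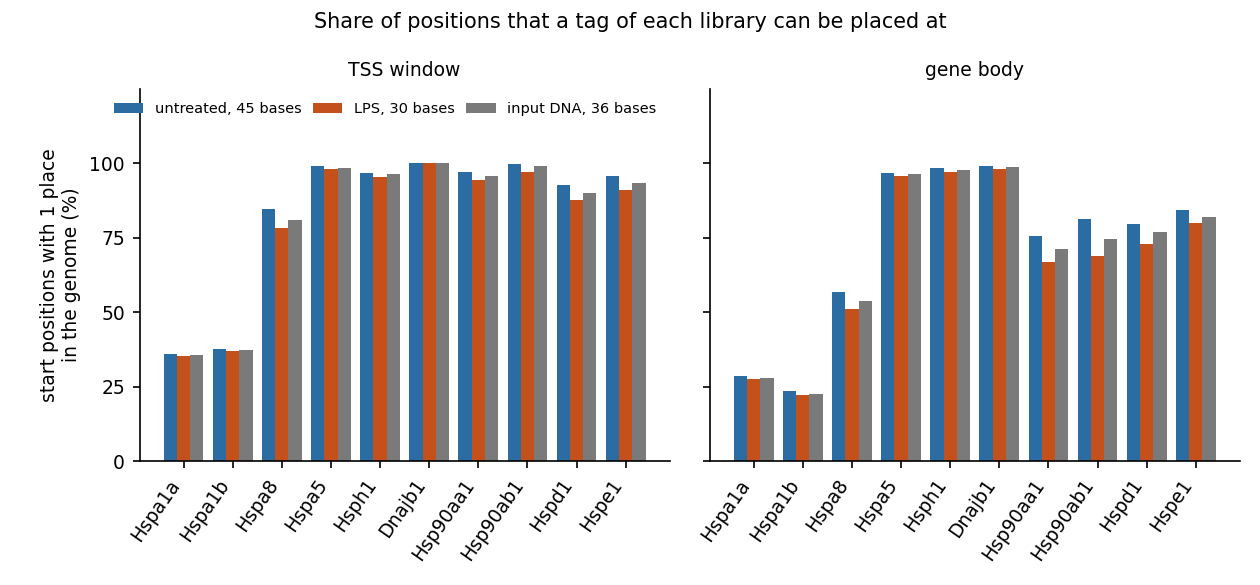
Share of start positions, on both strands, at which a read of each library's length has 1 place in mm9 with at most 2 mismatches, in the TSS window and the gene body of each member. Hspa1a and Hspa1b stay at or below 37.5% in every bar, Hspa8 falls to 51.2% in the gene body after LPS, and the shorter LPS reads are at or below the untreated reads for every member.

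Hsph1 encodes Hsp105, an HSP110 protein that exchanges nucleotide on HSP70. Its TSS window held 161 tags in untreated, 88 in LPS and 20 in input DNA, or 10.6 (8.99 to 12.3), 7.04 (5.64 to 8.67) and 1.33 (0.810 to 2.05) normalised tags per kb. The LPS level lay below the untreated level with no overlap of the intervals, at a ratio of 0.67 (0.51 to 0.87), an interval that still holds the median gene's 0.831. Over the gene body (chr5:150416862-150438951, minus strand) 225 tags in untreated and 111 in LPS gave 0.60 (0.47 to 0.76), below the median gene's 0.874. The body of Hsph1 after LPS was at input level, with a ratio to input of 1.02 (0.79 to 1.33), and in untreated cells it was 1.70 times input (1.36 to 2.12). From 1 kb downstream of the start neither library was above input, at 0.94 (0.72 to 1.22) times input in untreated and 0.47 (0.33 to 0.66) in LPS cells.

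Dnajb1 encodes Hsp40, the J-domain partner of the inducible HSP70. It had 560 tags in untreated, 438 in LPS and 15 in input DNA in the TSS window, or 36.7 (33.8 to 39.9), 35.0 (31.8 to 38.5) and 0.995 (0.557 to 1.64) normalised tags per kb. The ratio was 0.95 (0.84 to 1.08) there and 1.04 (0.89 to 1.21) over the gene body (chr8:86132074-86135801, plus strand), and both intervals hold 1. In both libraries the fullest bin was 100 to 199 bp downstream of the start, with 127 and 98 tags.

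Hsp90ab1 encodes the constitutive HSP90 of the cytosol, HSP90 beta. Its TSS window held 653 tags in untreated, 468 in LPS and 27 in input DNA, or 42.8 (39.6 to 46.3), 37.4 (34.1 to 41.0) and 1.79 (1.18 to 2.61) normalised tags per kb. The ratio was 0.87 (0.77 to 0.99), near the median gene. A single peak of 2728 bp covered the start in untreated cells, and the LPS list had a peak of 1125 bp over the start and a separate one of 1075 bp upstream.

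Hsp90aa1 encodes the inducible HSP90 alpha, and the choice of start decided its value. At the 5′ end of the annotated gene the TSS window held 32 tags in untreated, 14 in LPS and 19 in input DNA, so that the ratio to input was 1.67 (0.92 to 3.11) for the untreated and 0.89 (0.41 to 1.87) for the LPS library. Transcript 001 starts 6333 bp further downstream, inside the annotated gene, and its window held 510, 364 and 22 tags, with ratios to input of 22.9 (14.98 to 36.9) and 19.9 (13.0 to 32.2). Between LPS and untreated cells this window had a ratio of 0.870 (0.758 to 0.997), against 0.53 (0.26 to 1.03) at the gene 5′ end. The fullest bins of the profile lay directly beyond this downstream start, at 100 to 199 bp in untreated cells (189 tags) and at 0 to 99 bp after LPS (104 tags). The peak at the gene 5′ end in untreated cells was small, 276 bp with a score of 67.2 and 21 tags, while the peak at transcript 001 scored 2432 in untreated and 2126 in LPS cells.

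Hspd1 encodes Hsp60 and Hspe1 its cap Hsp10, and the genes lie head to head on opposite strands with their annotated 5′ ends 111 bp apart, so nearly all tags of one window are tags of the other. Hspd1 had 302 tags in untreated, 153 in LPS and 17 in input DNA, and Hspe1 had 309, 154 and 21. The levels were 19.8 (17.6 to 22.2) and 12.2 (10.4 to 14.3) normalised tags per kb for Hspd1 in untreated and LPS cells, and 20.3 (18.1 to 22.7) and 12.3 (10.4 to 14.4) for Hspe1. Over the union of both windows (309 and 156 tags) the ratio was 0.62 (0.50 to 0.75). Its upper bound lay below the median gene's 0.831, which held for no other promoter among the members. Reads of 30 bases had 1 place at fewer positions of these windows than reads of 45 bases (87.7% against 92.6% for Hspd1). With all tags divided by the number of such positions, the ratios were 0.65 for Hspd1 and 0.64 for Hspe1. Over the gene bodies the ratio was 0.62 (0.51 to 0.76) for Hspd1 (chr1:55134679-55145087, minus strand) and 0.58 (0.44 to 0.76) for Hspe1 (chr1:55144976-55148151, plus strand). From 1 kb downstream of the start, outside the shared promoter, it was 0.55 (0.39 to 0.75) for Hspd1, from 129 and 58 tags, and 0.96 (0.39 to 2.27) for Hspe1, from 14 and 11 tags. The profile of Hspd1 had a crest on each side of the start, with 56 untreated tags in the bin 400 to 301 bp upstream, towards Hspe1. A single peak of 1812 bp in untreated and of 1351 bp in LPS cells covered both starts, with 316 and 150 tags.

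**Figure D3:**
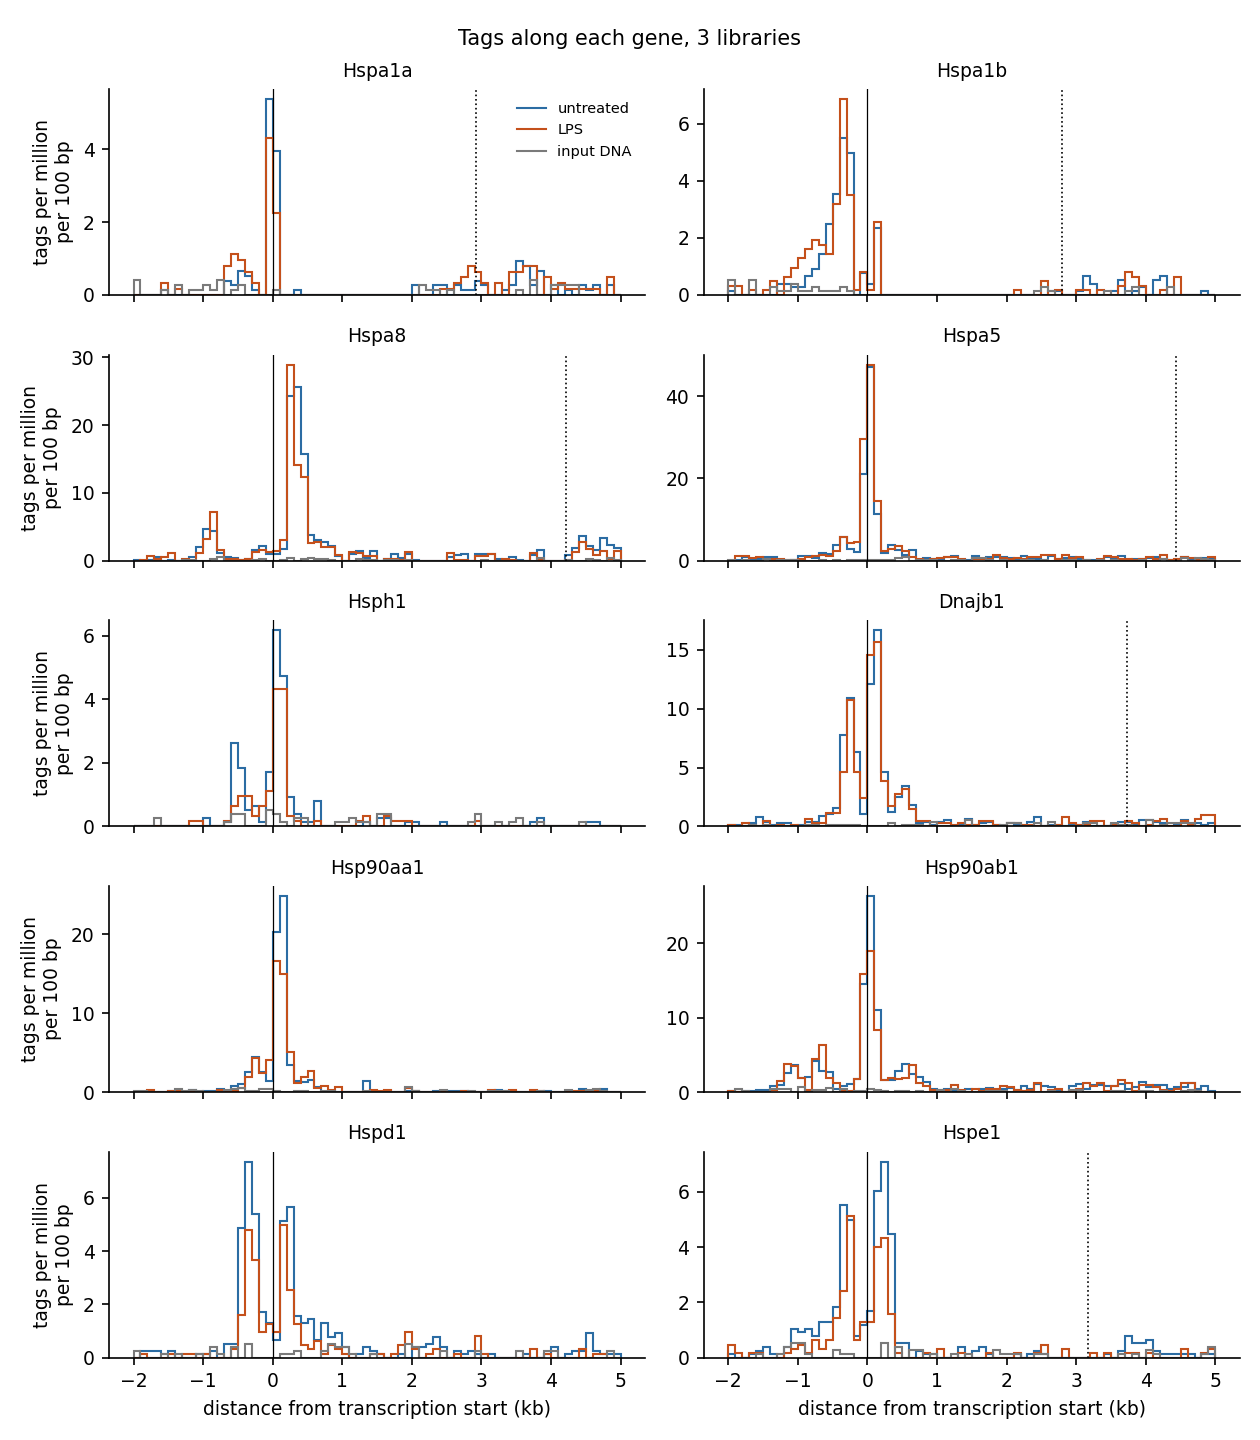
Tags, scaled to 1000000 per library, in bins of 100 bp from 2 kb before to 5 kb after the start of transcript 001 of each member (the gene 5′ end for Dnajb1), in direction of transcription, for untreated, LPS and input libraries; the solid line is the start and the dotted line the gene end where it falls in range. The crest lies within 400 bp of the start for every member, it is double around the shared promoter of Hspd1 and Hspe1, and the bare stretch downstream of both Hspa1 starts is sequence where few tags have a single place.

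Between LPS and untreated cells, then, no member met the rule of size, which asks for a ratio of at least 2 in either direction. In the TSS window 0 of 10 members passed it on the higher side, against 5.58% of the 12535 genes tested, and 0 of 10 on the lower side, against 14.1%. The members' median ratio was 0.886 beside 0.831 for all genes. In the gene body 0 of 10 were higher (5.83% of 17386 genes) and 0 of 10 lower (11.3%), with a median ratio of 0.820 beside 0.874. Ratios in the TSS window lay above the median gene for 6 members and below it for 4. Counting intervals lay wholly above that median for Hspa1b, Hspa5 and Dnajb1 and wholly below it for Hspd1 and Hspe1, and in the gene body wholly above it for Hspa5 and Dnajb1 and wholly below it for Hspd1, Hspe1 and Hsph1.

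Past the gene end, Hspe1 and Hspa8 had the lowest ratios of LPS to untreated among the members and Hsp90ab1 the highest. In the 5 kb downstream of the annotated end 0 of 10 members passed a ratio of 2 on the higher side (8.11% of 14665 genes) and 1 of 10, Hspe1, on the lower side (21.6%), with a median ratio of 0.946 beside 0.784 for all genes. Hspe1 had 62 tags in untreated, 18 in LPS and 28 in input DNA there, a ratio of 0.35 (0.20 to 0.61), and after LPS its ratio to input was 0.77 (0.40 to 1.45). Hspa8 had 545 tags in untreated, 231 in LPS and 41 in input DNA, levels of 14.3 (13.1 to 15.6), 7.39 (6.47 to 8.41) and 1.09 (0.781 to 1.48) normalised tags per kb. Its ratio was 0.52 (0.44 to 0.60) past the gene end, 0.70 (0.51 to 0.95) over the body from 1 kb downstream of the start, and 0.90 (0.80 to 1.01) in the TSS window. The intervals of the first and the last do not overlap. That part of the body, which holds the snoRNA genes Snord14c, Snord14d and Snord14e, had 1 place at 45.7% of positions for the untreated and 39.4% for the shorter LPS reads. All its tags divided by the kb of such positions gave closer levels, at 10.9 and 8.85. Of these tags, 1 of 122 untreated and 6 of 70 LPS ones began at other positions. The peak over this region, which begins at the end of the gene with no other annotated gene in it, was 3109 bp long with 517 tags and a score of 2759 in untreated cells, and 2307 bp with 208 tags and a score of 946.0 after LPS.

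Hsp90ab1 went the other way, with 571 tags in untreated, 900 in LPS and 42 in input DNA past its end and a ratio of 1.92 (1.73 to 2.14). That stretch also overlaps Slc35b2, and Nfkbie, which encodes an inhibitor of NF-kappaB, and the tags of these genes and of Hsp90ab1 cannot be told apart. The flank of Hspa1b (321 untreated, 291 LPS and 41 input tags) overlaps 1110038B12Rik with its snoRNAs, and that of Hspa5 (305, 228 and 41) overlaps Rabepk, so that neither is a value of the member alone. For the remaining flanks the ratios ran from 0.73 for Hspd1 to 1.13 for Dnajb1, and their intervals hold 1; that of Hsph1 overlaps Wdr95.

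**Figure D4:**
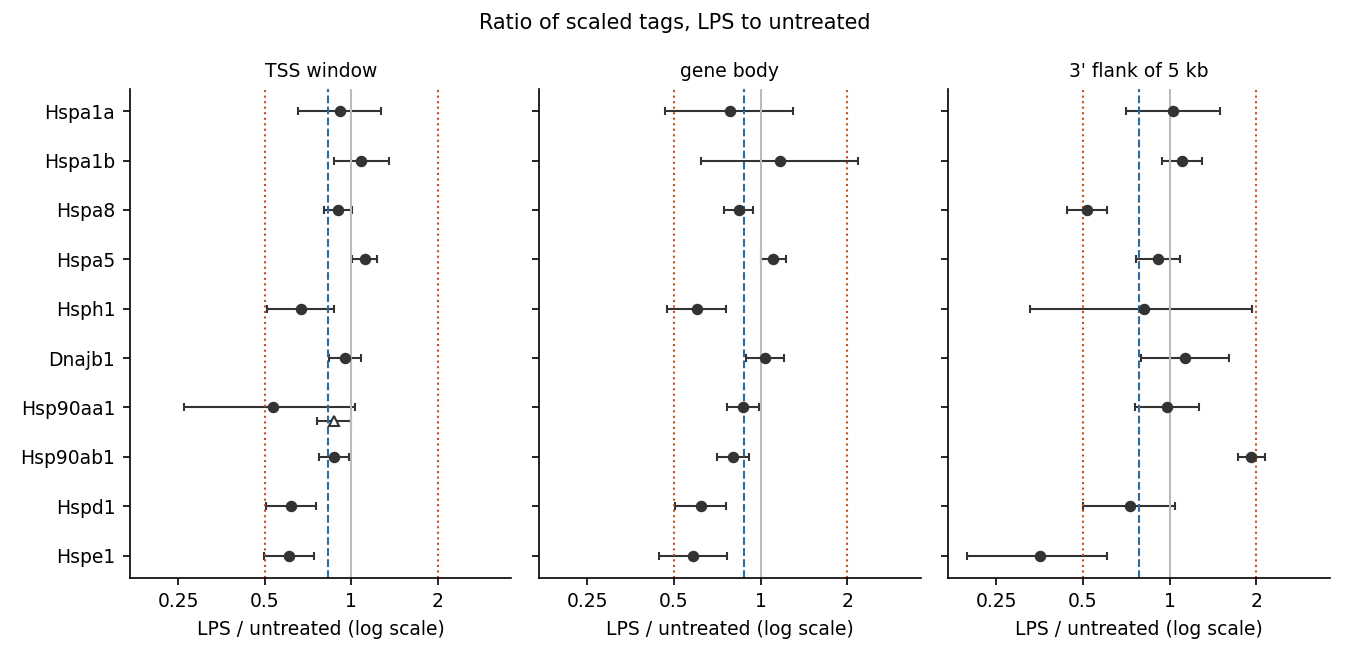
Ratio of LPS to untreated levels of each member in the TSS window, the gene body and the 5 kb past the gene end, on a log axis, with 95% exact intervals; the open triangle is Hsp90aa1 at transcript 001. The dashed line is the median of all genes tested (0.831, 0.874 and 0.784), the grey line a ratio of 1 and the dotted lines a ratio of 2 in either direction, past which only Hspe1 lies, in the right panel.

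The share of a gene's tags that lay within 1 kb of the start differed among members more than between libraries. It was highest for Hspa1b, at 98.9% (Wilson interval 96.0 to 99.7) of 180 tags in untreated and 96.9% (93.0 to 98.7) of 163 in LPS cells, where few of the remaining positions can hold a tag, and for Hspe1, at 95.7% (92.9 to 97.4) and 93.3% (88.5 to 96.2). Dnajb1 had 92.9% (90.5 to 94.7) and 91.6% (88.8 to 93.8), and Hspa8 85.8% (83.4 to 88.0) and 88.6% (85.9 to 90.9). The lowest was Hsph1, at 58.3% (52.4 to 63.996) of 276 tags in untreated and 65.2% (56.8 to 72.7) of 135 in LPS cells. For each of the 10 members the intervals of the untreated and LPS libraries overlapped. The share in input DNA also differed among members, at 71.4% for Hspa1b, 70% for Hspe1, 67.6% for Hspa8, 41.7% for Dnajb1 and 14.2% for Hsph1. The tags of Hsph1 from 1 kb downstream of the start were not above input, as given above. These shares are therefore not a measure of where Ser5 Pol_II lies alone.

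The other genes of the chaperone network were described from 8 lists with 80 genes, all of which were matched. In the TSS window 75 had at least 10 tags, of which 1 passed a ratio of 2 on the higher side (5.58% of all genes) and 4 on the lower side (14.1%), with a median ratio of 0.876 beside 0.831 for all genes. The higher one was Dnaja2, a J-domain partner of Hsc70, with 190 tags in untreated and 426 in LPS cells, a ratio of 2.73 (2.30 to 3.26) in the TSS window and 2.87 (2.43 to 3.40) in the gene body. The lower ones were Dnajb11, an ER J-domain protein, with 240 and 92 tags (0.47, 0.36 to 0.60), Bag2, a nucleotide exchange factor, with 67 and 20 (0.36, 0.21 to 0.61), Fkbp5, an HSP90 cochaperone, with 17 and 3 (0.22, 0.04 to 0.74), and Hspa12b with 9 and 3 (0.41, 0.07 to 1.63). The windows of Fkbp5 and Hspa12b had 12 and 6 tags in input DNA and no peak, and in untreated cells their ratios to input were 1.40 (0.63 to 3.22) and 1.48 (0.47 to 5.07). In the gene body 77 were tested, 1 was higher (5.83% of all genes) and 2 were lower (11.3%), with a median of 0.903 beside 0.874. The lower ones there were Hspb6, at 434 and 178 tags (0.50, 0.42 to 0.60), and Clpp, the mitochondrial protease subunit, at 215 and 87 (0.49, 0.38 to 0.64). A Ser5 peak touched the TSS window of 72 of the 80 in untreated and of 70 in LPS cells, against 48% and 45.9% of all genes.

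By function, the ER chaperones and unfolded protein response genes had a median TSS window ratio of 0.977 over 14 genes, from Sdf2l1, a partner of ER J-domain proteins (0.56), to Pdia6, a disulfide isomerase (1.24). The mitochondrial list, which holds the exchange factor of the mitochondrial HSP70, a mitochondrial HSP90 and matrix proteases, had a median of 0.750 over 5 genes, from Clpp (0.52) to Grpel1 (0.80). Of these 5 the interval lay wholly below the median gene for Clpp alone, and 0 passed a ratio of 2 in either direction. The further HSP70 and HSP110 genes had a median of 0.808 over 9 genes, with Hspa4l at 1.16 and Hspa14 at 0.62. These 9 include Hspa1l, whose window overlaps that of the member Hspa1a, and Hspa12b, whose few tags are given above. For the J-domain list (15 genes) it was 0.885, for the HSP90 cochaperones and HSP70 exchange factors (15 genes) 0.808 with Bag1 highest at 1.30, and for the cytosolic chaperonin TRiC (8 genes) 0.893, from Cct5 (0.76) to Cct3 (1.23). Among the regulators (median 0.902 over 7 genes), the heat shock factor genes Hsf1 and Hsf2 had ratios of 0.84 (0.71 to 0.99) and 0.54 (0.37 to 0.78) in the TSS window, and Hsbp1, which encodes a binding protein of heat shock factor 1, had 1.08. In the gene body Hsf2 went the other way, with 152 tags in untreated, 176 in LPS and 152 in input DNA, a ratio of LPS to untreated of 1.41 (1.13 to 1.76). The small heat shock proteins had a median of 0.676 over the 2 genes tested and were nearly without tags otherwise: Hspb1, Hspb2, Hspb8 and Cryab had between 1 and 6 in untreated cells, and Hspb6 had 296 in untreated and 131 in LPS cells (0.54, 0.44 to 0.66).

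**Figure D5:**
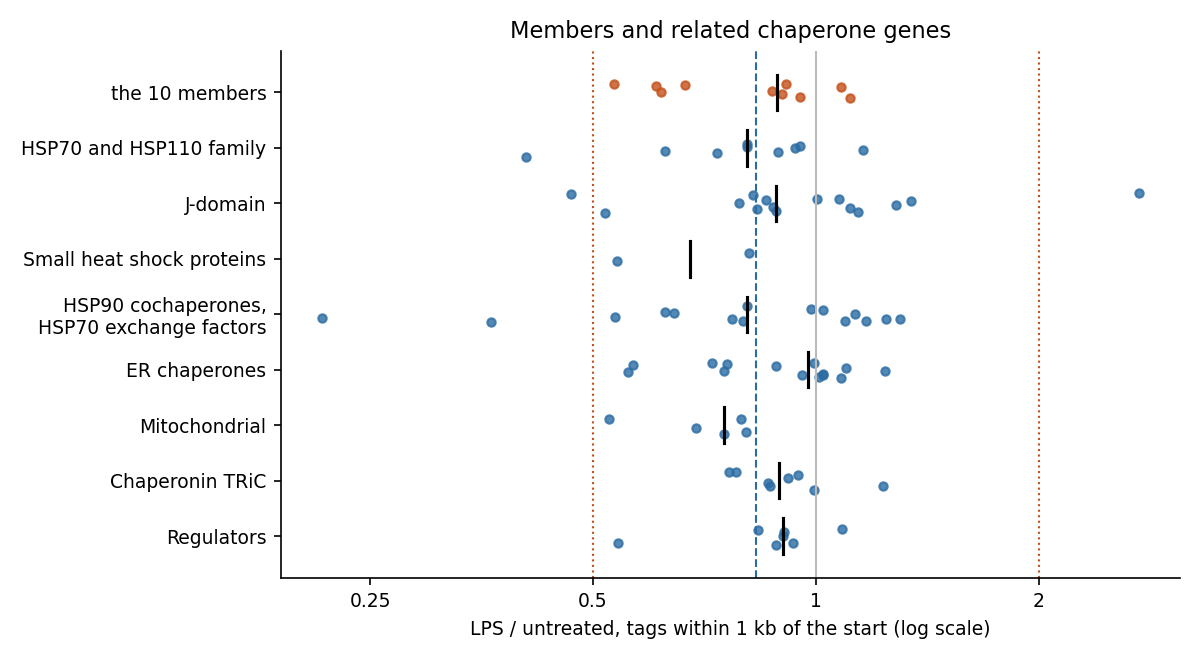
Ratio of LPS to untreated levels in the TSS window, on a log axis, for the 10 members and the related lists; each point is a gene with at least 10 tags and the black bar is the median of the list. The dashed line is the median of all genes (0.831), and the dotted lines are ratios of 2 in either direction, past which Dnaja2 lies on the higher side and Dnajb11, Bag2, Fkbp5 and Hspa12b on the lower.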

How the data were processed

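Ser5 Pol_II ChIP-Seq and input DNA from mouse bone marrow-derived macrophages were analysed from deposited files of aligned tag positions, which the authors made with Bowtie on mm9 from trimmed reads, keeping by their account those with a unique alignment, and from deposited peak lists, which the authors called with MACS for each Ser5 library against input. The deposited peak score is 10 times the negative log10 of the p-value and was at least 50 in both lists. Read lengths are those of the files; the study's methods give the lengths of the untreated and LPS reads the other way round, and which is right was not settled. Versions of the authors' tools are not given in the sources used here.

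Tags were counted at their 5′ end, duplicates kept, in the TSS window (1 kb on each side of the gene 5′ end), the gene body and the 5 kb past the gene end, of GENCODE M1 protein-coding genes, in Python 3.11.15 with numpy 2.4.6 and scipy 1.17.1. The region past the gene end was added after values had been seen. Whether file coordinates count from 0 or 1 could not be settled, which leaves 1 bp of uncertainty. Ratios have exact conditional binomial intervals, levels exact Poisson and shares Wilson intervals; PCR duplicates make all of them counting error only. A gene was called at a ratio of at least 2 with at least 10 tags over both libraries; for this rule 0.5 tags stood in for 0. The members and lists were chosen with earlier results of these data known. Besides the members, the genes named are the highest and lowest TSS window ratio of each list among genes with at least 50 tags, Ccl5, Tnf, Nfkbia and genes past a ratio of 2; Camp, Hsf1 and the small heat shock genes were named after their values were seen. Actb, a further check gene, had 2736 and 2975 tags (1.33). Uniqueness of reads was searched against the mm9 sequence of both strands with numba 0.67.0. A promoter sequence and its motif match are not reported here, so the motif matches named are not a full list over the members. Scripts were tested on simulated data, and figures used matplotlib 3.10.9.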

Additional observations from a re-analysis of the deposited data

How the results depend on the processing

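The counts of members past a ratio of 2 in the TSS window were 0 and 0 under all 8 alternatives, and the members above input and with a peak stayed at 9 or 10 of 10. In the gene body they were 0 and 0 except over the body from 1 kb downstream of the start, where 1 member was lower, Hsph1 (0.498 from 115 and 47 tags), where input had 121 tags and neither library was above it; Hspe1 moved there from 0.58 to 0.96 (14 and 11 tags).

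The median member ratio of 0.886 in the TSS window became 0.954 with 1 tag per position and strand, 0.954 when scaled to tags outside peaks and 1.07 when centred on the median gene. The gene body's 0.820 became 0.986, 0.883 and 0.939 under the same settings. It became 0.938 with all tags divided by uniquely mappable positions and 0.881 over the body from 1 kb downstream. The gene body median of all genes was 0.888 with 1 tag per position and strand, and 0.941 when scaled to tags outside peaks. The members' median thus lay above that of all genes in the first setting and below it in the second. Which side of 1 the TSS window median falls on depends on the scaling. With 1 tag per position and strand the TSS window interval of Dnajb1, 0.82 to 1.11, held the median gene's 0.863. In the main count it lay wholly above the median gene. For Hspa1b the interval within 500 bp of the gene 5′ end was 0.76 to 1.28, and all genes were not counted in that window. Of single members, the TSS window ratio lay between 0.60 and 0.74 for Hspd1, 0.61 and 0.73 for Hspe1 and 0.67 and 0.80 for Hsph1, and between 1.11 and 1.34 for Hspa5, over 7 settings each, and the ratio past the end of Hspa8 between 0.51 and 0.56 over 4 settings added after seeing the data. Of all TSS window calls 28.3% were higher, and 47.2% after centring (gene body 34.1% and 51.7%). Depth limits the gene 5′ end of Hsp90aa1 (32 and 14 tags), and unique sequence limits Hspa1a and Hspa1b. No paired analysis was possible because there was 1 library per condition.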
